A study of Mus musculus with 6 samples.

Results

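The Egr, Nr4a and neuronal early genes are a set of 10 immediate early genes, Egr1, Egr2, Egr3, Egr4, Nr4a1, Nr4a2, Nr4a3, Arc, Npas4 and Ier2, chosen by name from 22180 genes measured in mouse medulloblastoma, a tumour of the cerebellum. Each of the 10 genes had exactly 1 feature with a single gene symbol on the Affymetrix whole-transcript array, so no feature had to be chosen among several. One array was made per tumour, with 3 tumours in each group. Levels are log2 values from RMA, which corrects background, brings the arrays to a common scale and combines the probes of a feature, so a difference of 1 is a doubling. The wild type group carried Math1Cre::SmoM2Fl/+, and the knockout group Math1Cre::CrebbpFl/FlSmoM2Fl/+. SmoM2, present in both groups, is an active form of the Sonic hedgehog transducer Smoothened. The Cre recombinase is under Math1 (Atoh1) control and depends on tamoxifen, so it is directed at the granule neuron lineage. Cells of the tumour in which it did not act keep an intact Crebbp gene, and where it acted was not measured. Tamoxifen (1 mg) was given to every animal at postnatal day 5, and those with a tumour were killed at postnatal day 60. The age label gives day 5, which was read as the day of induction. Nothing in the labels says that tumours of one genotype were from separate litters or cages, so a p-value here reflects the spread between these samples alone, which may be partly technical.

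Immediate early genes are switched on within minutes of a stimulus, without new protein synthesis, by factors that are already bound to their promoters, chiefly serum response factor with its ETS partners and CREB. CREBBP, the histone acetyltransferase deleted here, is a coactivator of phosphorylated CREB. In neurons, calcium entry through synaptic activity induces Egr1, Arc and Npas4, while Ier2, Egr1 and Nr4a1 also respond to growth factors in many cell types. The comparison asks whether the level of these genes differed between SmoM2 tumours with and without Crebbp.

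No member of the set differed between the groups at an adjusted p under 0.05 (0 of 10). The test was limma, a linear model per gene that shares information on the spread across genes, with Benjamini-Hochberg adjustment over all genes. Over all genes 46 passed, which is 0.207%, and 36 passed when X and Y genes were left out. The log2 changes of the 10 genes, knockout minus wild type, lay between -0.28 for Egr2 and 0.09 for Ier2. Their median was -0.01, beside a median of 0.00 over all genes. In absolute size the median change of the set was 0.07 log2 units, and that of all genes was 0.12. Of the 10 genes, 6 had a negative change, beside 49.1% of all genes. At an unadjusted p under 0.05 there was 1 member, Egr2, beside 13.8% of all genes. The groups were fully separate for 3 members, Egr2, Nr4a2 and Npas4, beside 19.6% of all genes.

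The 95% intervals of the 10 log2 changes lay between -0.53 and 0.47. On the linear scale the bounds furthest from 0 were 1.44-fold lower in knockout tumours, for Nr4a2 and Egr2, and 1.39-fold higher, for Ier2. The narrowest interval was that of Npas4, from -0.14 to 0.24 log2 units. A p that misses the threshold does not show that the levels were equal, and with 3 arrays per group differences of any size inside these intervals cannot be told apart. RMA compresses the changes of dim features.

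**Figure D1:**
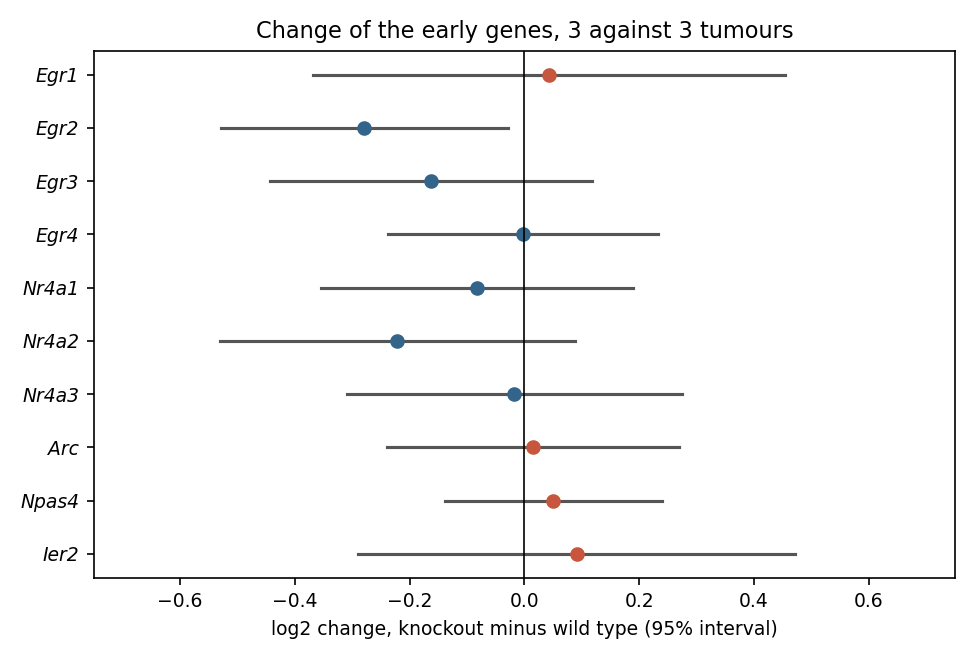
Log2 change of each gene, knockout minus wild type, with the 95% interval of the limma fit as a line (3 tumours per group; blue points are negative and red points positive changes). All intervals except that of Egr2, from -0.53 to -0.03, include 0.

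The labelled groups were checked first. Crebbp (feature 17327681) was measured at 11.80, 11.76 and 11.70 in the wild type group and at 11.24, 11.34 and 11.20 in the knockout group, as log2 levels. The groups did not overlap, with a log2 change of -0.50 (SE 0.09, limma adjusted p = 0.0948), and the exons removed are not given in the labels. Atoh1, which defines granule neuron progenitors, had log2 levels of 10.93 or more in every tumour. Sex-linked transcripts separated the groups as well: Xist was at 5.13 to 5.74 in wild type and at 12.26 to 12.45 in knockout tumours, and 3 Y-linked genes went the other way. Sex therefore followed genotype in all 6 arrays, and their effects cannot be told apart. Because the samples are bulk tissue, fewer cells of a type and less RNA per cell cannot be told apart either.

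The promoters of the set were searched for the sites that CREB and the other early-response factors recognise. RefSeq promoters of the GRCm38.p6 build were at hand for 6 of the 10 genes, and the 250 bases before the start are given for 4. Egr2 and Nr4a2 are shown because their groups did not overlap and their changes were the most negative of the set. Nr4a1 (-0.08) and Npas4 (0.05) are stimulus-induced genes with smaller log2 changes, chosen with the values known. The groups of Npas4 did not overlap either. Egr4 and Nr4a3, whose promoters are not shown, had changes of 0.00 and -0.02. Capitals mark TGACG, the core of the cAMP response element bound by CREB, read on both strands and so also written CGTCA, and, in Egr2, the CArG box bound by serum response factor. Of 5 Egr2 starts in the table the middle one of the closest 3 is shown. The windows are chr10:67537620-67537869 on the plus strand for Egr2, chr2:57124004-57124253 on the minus strand for Nr4a2, chr15:101266596-101266845 on the plus strand for Nr4a1 and chr19:4989972-4990221 on the minus strand for Npas4.
Egr2: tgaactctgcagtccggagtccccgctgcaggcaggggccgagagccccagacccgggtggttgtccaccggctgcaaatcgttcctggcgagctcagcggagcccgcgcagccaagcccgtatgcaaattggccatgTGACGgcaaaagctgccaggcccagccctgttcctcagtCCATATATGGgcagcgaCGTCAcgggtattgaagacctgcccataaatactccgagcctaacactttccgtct
Nr4a2: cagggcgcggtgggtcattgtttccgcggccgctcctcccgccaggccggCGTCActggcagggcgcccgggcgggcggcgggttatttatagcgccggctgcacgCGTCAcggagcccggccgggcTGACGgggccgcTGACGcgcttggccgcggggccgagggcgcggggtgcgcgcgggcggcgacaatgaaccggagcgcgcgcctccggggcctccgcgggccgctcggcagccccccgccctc
Nr4a1: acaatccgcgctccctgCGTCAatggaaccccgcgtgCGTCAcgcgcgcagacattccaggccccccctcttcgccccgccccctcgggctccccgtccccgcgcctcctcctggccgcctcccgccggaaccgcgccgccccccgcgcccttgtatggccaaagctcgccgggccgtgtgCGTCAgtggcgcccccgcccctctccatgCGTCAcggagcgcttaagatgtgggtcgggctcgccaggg
Npas4: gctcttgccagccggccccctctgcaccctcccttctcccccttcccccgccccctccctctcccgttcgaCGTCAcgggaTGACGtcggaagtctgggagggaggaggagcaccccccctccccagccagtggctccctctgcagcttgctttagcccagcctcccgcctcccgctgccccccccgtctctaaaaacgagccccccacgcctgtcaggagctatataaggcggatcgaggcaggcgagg

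The TGACG core occurred 4 times each before the starts of Nr4a1, Nr4a2 and Nr4a3, and 2 times each before those of Egr4, Npas4 and 3 of the 5 Egr2 starts. It was absent from the other 2 Egr2 windows. In 32851 promoters of the same length 17.8% held it at least once. The windows of the set were 54 to 80% G or C, and the promoters behind these shares were not matched for base composition. The full palindrome TGACGTCA, which contains the core on both strands, was in none of the windows of the set and in 1.55% of all promoters. A CArG box lay before 4 of the 5 Egr2 starts and in no other window of the set, and 1.47% of all promoters had one. The 3 Egr2 windows with TGACG begin at bases 67537619, 67537620 and 67537680 of chromosome 10 and overlap. They share the same TGACG cores and the same CArG box, so these matches are not separate sites. The site GCGNGGGCG, which EGR proteins recognise, occurred 1 time each before Nr4a1 and Nr4a2 and in 4.7% of all promoters. The NR4A monomer site AAAGGTCA was in none of the windows and in 1.34% of all promoters. A match describes letters in this window and is not a shown binding site.

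The EGR family encodes 4 zinc finger transcription factors that bind GC-rich sites and whose activity is restrained by the corepressors NAB1 and NAB2. Egr1, which is induced by many kinds of stimuli (feature 17349514, chromosome 18), was measured at 7.34, 7.44 and 6.84 in the wild type group and at 7.48, 7.21 and 7.06 in the knockout group, as log2 levels. The groups overlapped, with the lowest value in wild type replicate 3 and the highest in knockout replicate 1. The means were 7.21 ± 0.32 and 7.25 ± 0.21 (SD, n = 3 each), and the log2 change was 0.04 (SE 0.18, limma adjusted p = 0.943). Its sign rested on single arrays, with a change of -0.14 without wild type replicate 3 and of -0.07 without knockout replicate 1.

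Egr2, known for its part in hindbrain patterning and in myelination by Schwann cells (feature 17233993, chromosome 10), was measured at 7.30, 7.50 and 7.43 in the wild type group and at 7.10, 7.29 and 7.01 in the knockout group, as log2 levels. No knockout tumour reached the lowest wild type value, although wild type replicate 1 and knockout replicate 2 differed by little. The means were 7.41 ± 0.10 and 7.13 ± 0.14 (SD, n = 3 each), and the log2 change was -0.28 (SE 0.11), which is 1.21-fold between the group means. Egr2 had the smallest unadjusted p of the set, 0.033, and did not pass over all genes (limma adjusted p = 0.318). An exact permutation test over the 6 arrays (two-sided) returned p = 0.1, which is as small as this design can give. Every gene whose groups do not overlap returns this value, Nr4a2, Npas4 and 19.6% of all genes included, so it adds nothing to the separation. Leaving out single arrays gave changes of Egr2 from -0.36 to -0.22. The unadjusted limma p of Egr2 rose above 0.05 in 4 of these 6 fits, to 0.101 without wild type replicate 2, 0.0677 without wild type replicate 3, 0.0859 without knockout replicate 1 and 0.104 without knockout replicate 3.

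Egr3, which is induced by neuronal activity and in part by EGR1 itself (feature 17301718, chromosome 14), was measured at 6.78, 7.09 and 7.05 in the wild type group and at 6.69, 6.77 and 6.96 in the knockout group, as log2 levels. Wild type replicate 1 lay within the range of the knockout tumours. The log2 change was -0.16 (SE 0.12, limma adjusted p = 0.600). Egr4, known for its role in male germ cells (feature 17468405, chromosome 6), was measured at 6.06, 6.17 and 6.34 in the wild type group and at 6.18, 6.14 and 6.24 in the knockout group, as log2 levels. The knockout values all lay inside the wild type range, and the log2 change was 0.00 (SE 0.10, adjusted p = 0.995).

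The NR4A family encodes 3 orphan nuclear receptors that act without a known natural ligand, and whose activity is thought to depend largely on their level. Nr4a1, also called NUR77 and induced by growth factors (feature 17315178, chromosome 15), was measured at 7.63, 7.43 and 7.83 in the wild type group and at 7.60, 7.56 and 7.48 in the knockout group, as log2 levels. The knockout values again lay inside the wild type range, and the log2 change was -0.08 (SE 0.12, limma adjusted p = 0.809). Nr4a3, also called NOR1 (feature 17413945, chromosome 4) was measured at 6.05, 6.36 and 6.51 in the wild type group and at 6.33, 6.25 and 6.28 in the knockout group, as log2 levels. Its log2 change was -0.02 (SE 0.13, adjusted p = 0.970), with wild type replicate 1 at the bottom and wild type replicate 3 at the top of all 6 arrays.

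Nr4a2, also called NURR1 and needed for midbrain dopamine neurons (feature 17385374, chromosome 2), varied little in 1 group and more in the other. The wild type tumours lay close together at log2 levels of 8.79, 8.78 and 8.81, and the knockout tumours were at 8.76, 8.68 and 8.28. The groups did not overlap, but the gap between knockout replicate 1 and the wild type tumours was small and knockout replicate 3 stood well below the rest. The means were 8.80 ± 0.02 and 8.57 ± 0.26 (SD, n = 3 each), and the log2 change was -0.22 (SE 0.13, limma adjusted p = 0.517; exact two-sided permutation p = 0.1). Without knockout replicate 3 the change was -0.07, and without knockout replicate 1 it was -0.32.

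Arc and Npas4 are the members tied most closely to synaptic activity. Arc, whose product promotes the removal of AMPA receptors from synapses (feature 17317983, chromosome 15), was measured at 8.19, 8.22 and 8.43 in the wild type group and at 8.23, 8.20 and 8.44 in the knockout group, as log2 levels. The groups covered nearly the same range, with replicate 3 the highest in both, and the log2 change was 0.01 (SE 0.11, limma adjusted p = 0.970). Npas4, a transcription factor of neurons that answers to calcium entry (feature 17361435, chromosome 19), was measured at 6.13, 6.20 and 6.19 in the wild type group and at 6.21, 6.24 and 6.22 in the knockout group, as log2 levels. Its groups did not overlap, yet the log2 change was 0.05 (SE 0.08, adjusted p = 0.837). Its pooled SD within groups, 0.03 log2 units, lay at the 0.663rd percentile of all genes, so that this separation is one of hundredths of a log2 unit.

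Ier2, a nuclear protein induced by growth factors (feature 17511130, chromosome 8), was measured at 7.74, 8.16 and 7.54 in the wild type group and at 7.76, 8.06 and 7.89 in the knockout group, as log2 levels. All knockout values lay inside the wild type range, and the log2 change was 0.09 (SE 0.16, limma adjusted p = 0.855). Leaving out wild type replicate 2 gave 0.26, and leaving out wild type replicate 3 gave -0.04. Ier2 and Egr1 varied most among tumours of a group, with pooled SDs within groups of 0.24 and 0.27 log2 units, at the 84.2nd and 87.9th percentiles of all genes. Those of the other 8 members lay between the 0.663rd and the 67.4th percentile.

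**Figure D2:**
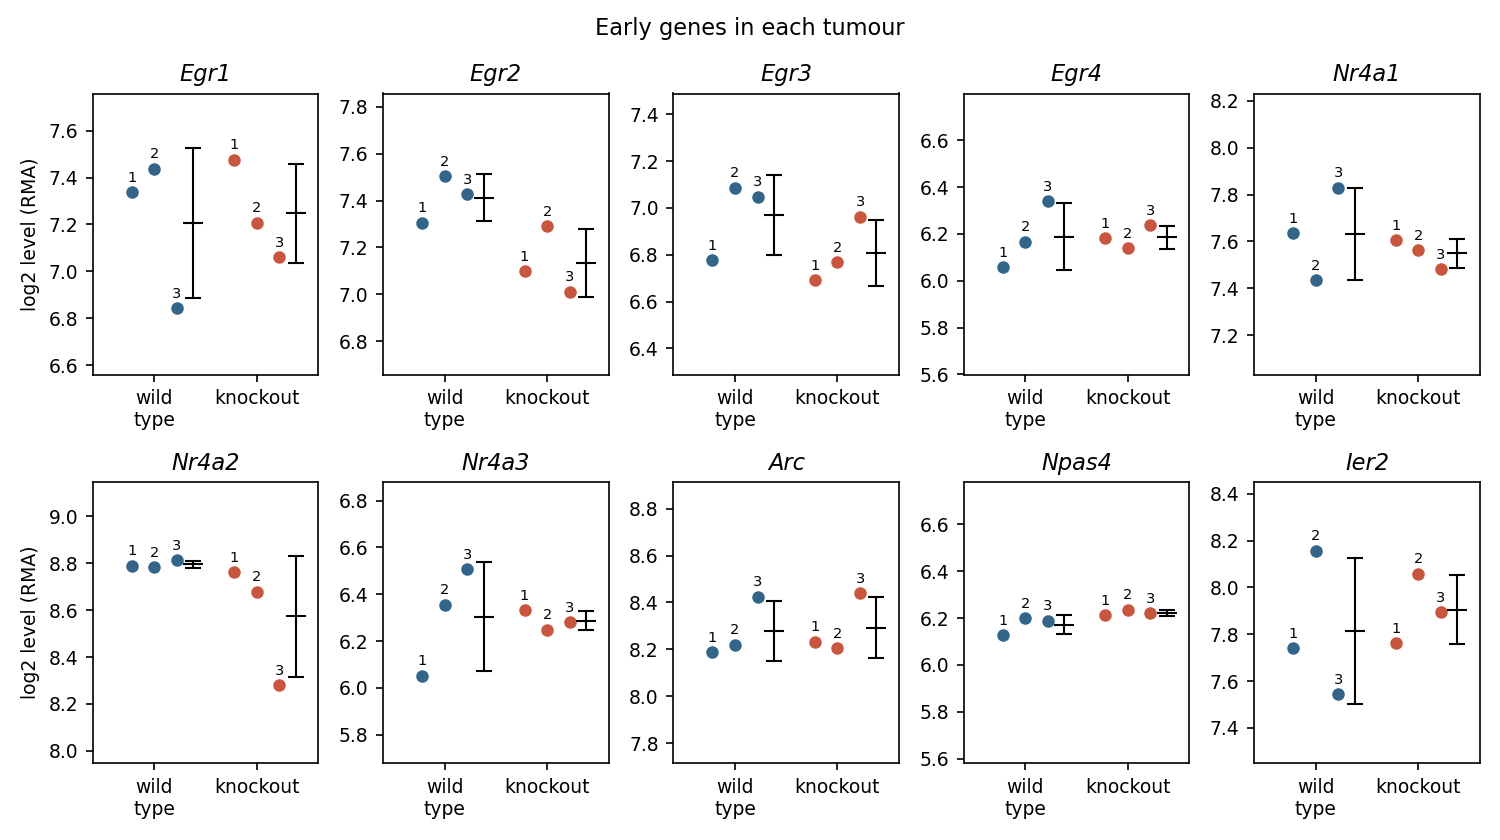
Log2 level of each gene in the 3 wild type (blue) and 3 knockout (red) tumours, numbered by replicate, with the group mean and SD in black beside the points; every vertical axis spans 1.2 log2 units and none starts at 0. The groups are separate for Egr2, Nr4a2 and Npas4 and overlap for the other genes.

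The 10 genes did not move as a block from tumour to tumour. Wild type replicate 3 was the highest array for 4 members, Egr4, Nr4a1, Nr4a2 and Nr4a3, and the lowest for Egr1 and Ier2. Wild type replicate 1 was the lowest for 4 members, Egr4, Nr4a3, Arc and Npas4, and wild type replicate 2 was the highest for 3, Egr2, Egr3 and Ier2. The mean deviation of the set from the genes' own means was -0.05, 0.09 and 0.05 in wild type tumours and -0.01, -0.01 and -0.06 in knockout tumours, and these ranges overlapped. As a description over 6 arrays, which share groups and scaling, Pearson's r was above 0 in 25 of the 45 pairs of members, with a median of 0.10. The highest was 0.90, between Egr4 and Nr4a3, and the lowest -0.89, between Nr4a1 and Ier2. Egr1 and Nr4a1 had an r of -0.58.

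**Figure D3:**
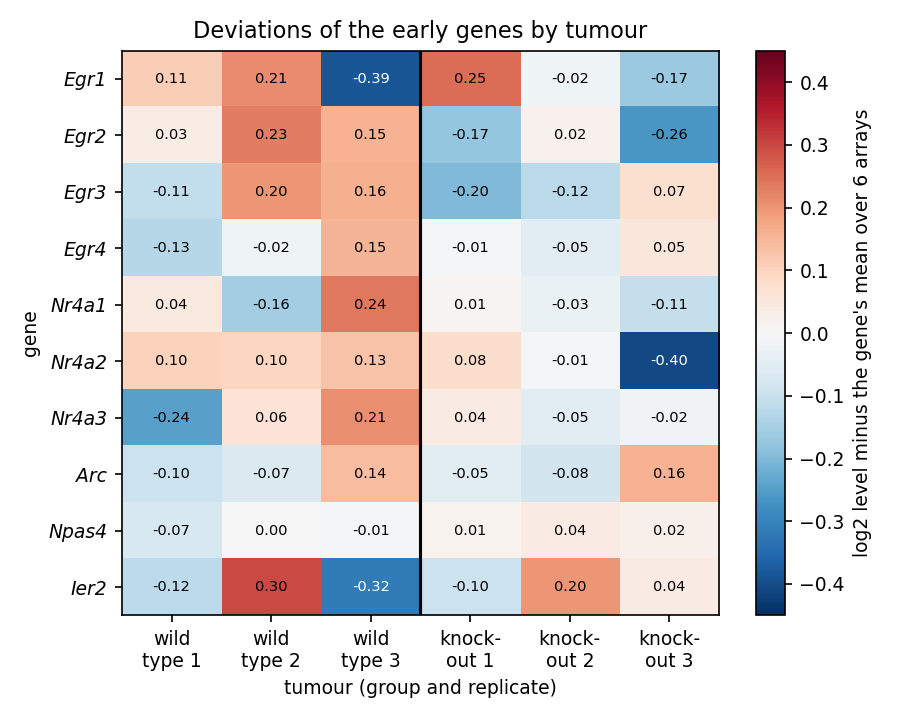
Deviation of each gene (rows) in each tumour (columns, wild type left of the line, knockout right) from its own mean over the 6 arrays, in log2 units, from blue (below) to red (above). The lowest cells are Nr4a2 in knockout replicate 3 (-0.40) and Egr1 in wild type replicate 3 (-0.39), and no column has 1 colour throughout.

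Among 1977 named genes with a mean log2 level of at least 7 and an SD over the arrays of at least 0.25, those whose pattern was most like the mean deviation of the set were Dsel (r = 0.96 over 6 arrays), Polh (0.96), St6galnac5 (0.92), Dtwd1 (0.91) and Trim59 (0.90). Those most like Egr1 were Cerox1 (0.95), Hspb8 (0.94), Prr5 (0.91), Klhl36 (0.91) and Etv5 (0.91). None of the 10 is another early gene of the lists used here. Only the highest values of r out of 1977 are given, so they describe a ranking and carry no test.

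Other immediate early genes were examined beside the set. Of 30 measured, 0 passed over all genes in limma, 21 had a negative and 9 a positive log2 change, and the median was -0.07 (-0.11 without wild type replicate 1). At an unadjusted p under 0.05 there were 7 (23.3%, beside 13.8% of all genes), 5 lower in knockout tumours (beside 6.51% of all genes) and 2 higher (beside 7.24%). The smallest p belonged to Ier5l, a relative of Ier2 (log2 change -0.54, SE 0.10, adjusted p = 0.110), and to the AP-1 factor Fosl2 (-0.39, SE 0.10, adjusted p = 0.182). Ier5l was at log2 levels of 9.20, 9.27 and 9.30 in the wild type group and of 8.85, 8.72 and 8.57 in knockout tumours, with a clear gap between the groups. Another relative, Ier5, was at 10.81, 11.06 and 10.47 against 10.48, 10.41 and 9.96, and its groups overlapped (log2 change -0.49, adjusted p = 0.313). Genes chosen after their values were seen were Ier5, Junb (-0.31), Fos (-0.11), Dusp6 (0.31), a phosphatase that restrains ERK signalling, and Gadd45g (0.43).

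The factors that act upstream of these genes were split evenly, with 8 of 16 measured on each side of 0 and a median log2 change of 0.03, which was -0.01 with arrays centred on their medians or without knockout replicate 2. None passed over all genes in limma. With a variance trend 1 did, beside 107 of all genes, and without the dimmest 50% of genes 1 did, beside 68 of the genes kept. An unadjusted p under 0.05 was found for 4 (25%, beside 13.8% of all genes), 1 lower (beside 6.51%) and 3 higher (beside 7.24%). The 1 lower gene is Crebbp, whose deletion is part of the design. Crebbp also counts in the split and in the median above. Besides Crebbp itself, the smallest p belonged to Crem, a CREB relative whose short product ICER represses cAMP response elements. Crem was at log2 levels of 7.43, 7.47 and 7.46 in the wild type group and of 7.68, 7.88 and 7.85 in knockout tumours, without overlap (log2 change 0.35, SE 0.09, limma adjusted p = 0.187). Creb1 had a change of 0.07 (SE 0.09), Srf one of -0.21 (SE 0.14) and the paralogous coactivator Ep300 one of 0.11 (SE 0.09). Mef2c, an activity-dependent factor of neurons named after its values were seen, had a change of 0.66 (SE 0.18, adjusted p = 0.194).

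Of 9 corepressors and partners of the EGR, NR4A and NPAS4 proteins 0 passed, with a median log2 change of -0.07, which with 1 array left out ran from -0.14 (knockout replicate 1) to 0.01 (knockout replicate 3). In limma, 2 (22.2%, beside 13.8% of all genes) had an unadjusted p under 0.05, the retinoid X receptors Rxra (-0.44, SE 0.14, adjusted p = 0.243) and Rxrg (-0.30, SE 0.12, adjusted p = 0.337), which can pair with NR4A1 and NR4A2. The EGR corepressors Nab1 and Nab2, named for their role, had changes of -0.06 (SE 0.10) and -0.12 (SE 0.10).

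Late activity-regulated genes, which follow the early factors, had a median log2 change of 0.08 over 17 measured, with 7 negative and 10 positive. The median was 0.03 without knockout replicate 2 and likewise without knockout replicate 3. Of these 0 passed in limma. An unadjusted p under 0.05 was found for 4 (23.5%, beside 13.8% of all genes), 2 lower (beside 6.51%) and 2 higher (beside 7.24%). Nptx1, a secreted pentraxin that clusters glutamate receptors, was at log2 levels of 6.47, 6.91 and 6.86 in the wild type group and of 8.33, 7.71 and 8.16 in knockout tumours. The gap was wide, with a log2 change of 1.32 (SE 0.18), and the limma adjusted p of 0.0516 missed the threshold by little. It passed under 7 of the 16 alternative settings that measured it, with adjusted p from 0.0209 to 0.194. Rgs4, a regulator of G protein signalling, had a change of 0.39 (SE 0.11, adjusted p = 0.192), while Bdnf, a classic target of CREB and NPAS4 named for that role, had one of 0.09 (SE 0.10).

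**Figure D4:**
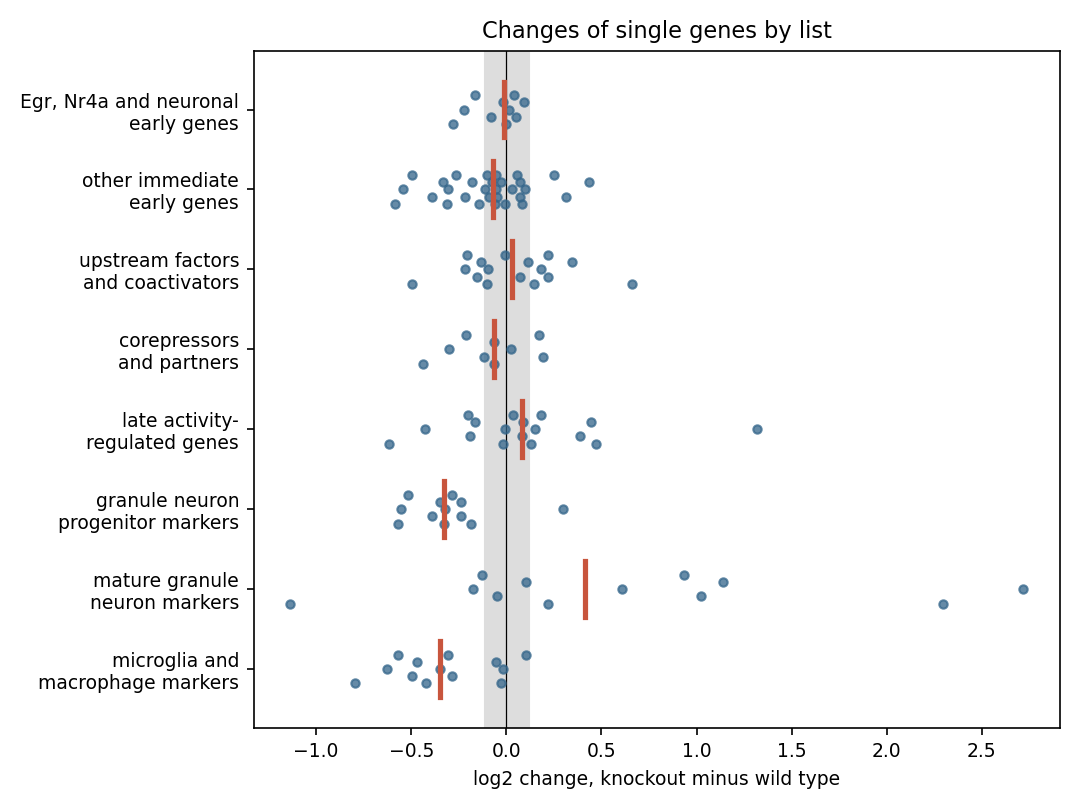
Log2 change, knockout minus wild type, of every measured gene (blue points) in the set, in 4 lists of related genes and in 3 lists of cell markers, with the median of each list as a red bar; the grey band spans the middle of all genes, from -0.11 to 0.12 (lower and upper quartile). The median of the set, -0.01, lies inside the band, while those of the 3 marker lists drawn, -0.33, 0.41 and -0.35, lie outside it. Among the marker lists not drawn, the endothelial and pericyte median (-0.01) also lies inside. Those of the astrocyte (0.38), oligodendrocyte (-0.32) and Purkinje and inhibitory neuron lists (0.47) lie outside.

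Several lists of cell markers had medians further from 0 than the set, and their part in the values above was not tested. Of 12 granule neuron progenitor markers 11 had negative changes (median -0.33), with mean log2 levels per array of 10.97 to 11.09 in the wild type and of 10.59 to 10.80 in knockout tumours; Insm1 (-0.51) and Sox11 (-0.57) had the smallest p. Of 12 mature granule neuron markers 8 were positive (median 0.41), with levels of 8.52 to 8.74 and of 8.69 to 9.62 and with Syt1 at 1.02 and Neurod1 at -1.13. Of 13 microglia and macrophage markers 12 were negative (median -0.35), with levels of 9.28 to 9.52 and of 8.94 to 9.24 and with Fcgr3 at -0.79 and Ctss at -0.57. Knockout replicate 3, where Egr2 and Nr4a2 were lowest, was also the lowest array for progenitor and microglial markers and the highest for mature granule neuron markers. Of the 10 members, 5 lay above their own mean in knockout replicate 3, and Arc was at its highest there (8.44). Knockout replicate 2, at 8.69, lay within the wild type range of the mature markers, whose median change was 0.63 without that array.

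In the remaining marker lists the endothelial and pericyte median was -0.01 (12 measured, 6 negative, Tek 0.50, Abcc9 -0.37). For astrocytes and Bergmann glia it was 0.38 (12 measured, 9 positive, Aldoc 1.47, Gja1 1.50). The oligodendrocyte lineage had a median of -0.32 (9 measured, 8 negative, Pdgfra -0.45, Sox10 -0.69). Purkinje cells and inhibitory neurons had one of 0.47 (11 measured, 10 positive, Gad1 0.47), with Lhx1 (-0.49) the only negative marker. For astrocyte markers the mean log2 level was 9.42, 9.38 and 10.14 in the wild type group and 9.98 to 10.16 in the knockout group, so that wild type replicate 3 stood with the knockout arrays. Leaving it out moved the astrocyte median to 0.61, and leaving out wild type replicate 2 moved it to 0.21. With the dimmest 50% of genes left out, which drops part of these lists, the median was 0.16 for mature granule neuron markers and 0.86 for Purkinje cell and inhibitory neuron markers. The endothelial median, near 0, changed sign with single arrays left out. No gene of the 7 marker lists passed over all genes in limma, and 42 of the 81 had an unadjusted p under 0.05, beside 13.8% of all genes. Without knockout replicate 2, 4 mature granule neuron and 3 Purkinje and inhibitory neuron markers passed, beside 128 of all genes. Without wild type replicate 3, 2 astrocyte, 1 progenitor and 1 mature granule neuron markers passed, beside 99 of all genes. With every array 46 of the 22180 genes passed. Log2 values from RMA have no zero and carry no detection call. Sex-linked transcripts were at 4.31 to 5.74 in tumours of the sex without them, and the lowest value of any member was 6.05, but background differs between features and this places no member above or below detection.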

How the data were processed

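RNA from 6 mouse tumours, 3 per genotype, was hybridised to Affymetrix arrays. Titles gave the group and a replicate number from 1 to 3. The log2 values, as deposited by the authors, came from RMA run with oligo (per the submitters' processing notes, without versions). RMA corrects background, brings arrays to a common distribution and summarises probes per feature, which would remove a change shared by most genes. Arrays have no read depth, and precision is limited by their number.

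Of 41345 features 23521 had 1 gene symbol. The feature with the highest mean was kept per gene, which left 22180 genes, and no filter on level was applied. Symbols are those of GEO's platform annotation, of which 99.2% matched a RefSeq gene, and promoters come from a RefSeq table of GRCm38.p6; no genome coordinates of the array were used. The values were tested with limma 3.58.1 under R 4.3.3 (eBayes after lmFit, two-sided, Benjamini-Hochberg over all genes, threshold 0.05), after the fit was tested on simulated data, and with an exact permutation test for single genes. The genes and lists were chosen with earlier results of these data known. Named genes were the 10 of the set, Crebbp, Ep300, of each list the genes past the threshold and the 2 with the smallest p, and the 5 genes most like the set and the 5 most like Egr1 in pattern; other names are marked in the text. Listed genes with no feature of their own were left out. Alternatives covered scaling, filters, variance models, array weights, features per gene, a replicate block, X and Y genes, thresholds and each array left out.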

Additional observations from a re-analysis of the deposited data

How the results depend on the processing

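No member passed an adjusted p of 0.05 under any of the 17 alternatives or at a threshold of 0.1, and the lowest adjusted p of a member was 0.241; at an unadjusted p of 0.05 the count was 1, Egr2, and it was 0 in 4 of the 6 fits with 1 array left out and without the dimmest 50% of genes, where Egr2 was not tested. Egr2, Egr3, Nr4a2 and Npas4 kept their sign in every alternative that measured them. Of 164 recomputed changes of members 18 had the other sign. They belonged to Egr1, Egr4, Nr4a1, Nr4a3, Arc and Ier2, whose main changes ran from -0.08 (Nr4a1) to 0.09 (Ier2). Arc went to -0.0271 with arrays centred on their medians and to -0.0421 with renewed quantile normalisation, where Egr1 went to -0.00611; with array weights Egr4 went to 0.0212 and Nr4a3 to 0.0282. Leaving out each array in turn gave -0.14 to 0.16 for Egr1, -0.0679 to 0.0735 for Egr4, -0.18 to 0.0155 for Nr4a1, -0.14 to 0.0838 for Nr4a3, -0.0592 to 0.0887 for Arc and -0.0439 to 0.26 for Ier2. Without the dimmest 50% of genes only 4 members were tested, Nr4a1, Nr4a2, Arc and Ier2. Each member had 1 feature and no feature with several symbols, so those alternatives changed none of their values.

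Over all genes the count past the threshold, 46, was 77 without the dimmest 25% of genes, 107 with a variance trend, 131 at an adjusted p of 0.1 and 3050 at an unadjusted p of 0.05, and 4 to 128 with 1 array left out; the lowest was without knockout replicate 3 and the highest without knockout replicate 2. Without X and Y genes that count was 36. With the replicate number as a block it was 12, and no member passed. Same-numbered tumours did not deviate together (r over genes of -0.03, 0.05 and 0.10), so the numbers were not taken as pairs. The cause of these shifts was not tested.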
